A study of Homo sapiens with 4 samples.

Results

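The genes described here are MYC, MYCN, MYCL, MAX, MXD1, MXI1, MXD3, MXD4, MNT and MLX, which encode the MYC family of transcription factors, their dimerisation partners and the repressors that compete with them. They were chosen by gene symbol, as a known protein network and not by a threshold on a measured value, with earlier results of these data known, and make up 10 of the 26364 genes in the deposited count table. All 10 passed the filter on low counts. The assay was RNA sequencing of Ishikawa cells, a human endometrial adenocarcinoma line, to learn how the Y537S mutant of estrogen receptor alpha (ESR1) affects gene expression. Every library came from ESR1-mutant cells of 1 of 2 clones, kept in hormone-depleted medium. The DMSO group (0.1% DMSO, the vehicle, for 8 h) and the E2 group (10 nM estradiol, also for 8 h) held 2 libraries each, 1 per clone. The column names of the table carry the tags A4 and B212, which no label mentions. Each tag has 1 DMSO and 1 E2 column and was assumed to be 1 clone. Which E2 library belongs with which DMSO library was taken from those names. Each clone is a single derived line with 1 library per treatment, so p-values measure only the spread between these libraries. The tests estimate that spread largely from other genes, so p-values and intervals do not show how reproducible a single gene is. Cells with an unmutated receptor were not analysed here.

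MYC, MYCN and MYCL proteins bind DNA as dimers with MAX, through a basic helix-loop-helix leucine zipper, at the E-box CACGTG and activate genes of growth and ribosome production. MXD1, MXI1, MXD3, MXD4 and MNT form dimers with MAX at the same sites and recruit the SIN3 and histone deacetylase corepressors, so the balance between both kinds of partner sets the output. MLX is a MAX-like protein that pairs with the glucose-sensing factors MLXIP (MondoA) and MLXIPL (ChREBP), and with some of the MXD proteins and MNT. In breast cancer cells MYC is known as an early target of the estrogen receptor.

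Promoters of 9 of the 10 genes were found in the RefSeq promoter table (build GRCh38.p14, windows of 250 bases before to 50 bases after an annotated start, 12 windows in all). MYC was not among them. The E-box CACGTG, a palindrome and so the same on both strands, was present in 3 of the 12 windows, those of MXD4, MNT and MLX, and in 7.26% of all 35116 windows. The stretches around these 3 matches are shown. They were picked by this motif and not by an expression value. Each runs 5′ to 3′ on the gene's own strand, with up to 60 bases beside the E-box and none past the annotated start, and the capitals mark the E-box.
MXD4: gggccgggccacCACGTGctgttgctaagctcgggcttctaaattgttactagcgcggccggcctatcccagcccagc
MNT: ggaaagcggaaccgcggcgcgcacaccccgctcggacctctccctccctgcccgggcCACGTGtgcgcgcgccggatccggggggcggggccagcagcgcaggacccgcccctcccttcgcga
MLX: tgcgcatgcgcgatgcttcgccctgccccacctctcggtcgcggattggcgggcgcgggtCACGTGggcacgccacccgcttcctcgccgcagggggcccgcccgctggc
The MXD4 stretch is chr4:2262282-2262359 on the minus strand, with 232 bases between the E-box and the start. The MNT stretch is chr17:2401188-2401310 on the minus strand, with 187 bases between them. The MLX stretch is chr17:42566990-42567099 on the plus strand, with 44 bases between them. The full palindromic estrogen response element, GGTCA followed after 3 bases of any kind by its reverse complement, was in 0 of the 12 windows and in 0.057% of all windows. Its half-site GGTCA, searched on both strands and contained in the full element, was in 5 of the 12 windows (those of MAX, MLX, MXD1, MXD3 and MXI1) and in 37.4% of all. The GC box GGGCGG, searched on both strands, was in 11 of the 12 windows, covering all 9 genes, and in 45% of all windows. A match describes these letters only.

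The libraries held 71575816 to 85222856 counts. CPM are counts scaled to a common library total with TMM factors. ESR1, the mutated gene, had 109.9 CPM with DMSO and 97.0 with E2 in A4, and 107 and 86.5 CPM in B212. Gene counts do not show the mutation. All 7 epithelial markers were detected, with a summed level of 2121 to 3022 CPM, against 0.379 to 0.517 CPM for 3 leukocyte markers and 2.03 to 4.60 CPM for 3 endothelial ones; CD3E and PECAM1 were listed at 0 in every library. So was EIF4A1, a translation initiation factor that cells in general use, and a 0 in this table therefore does not by itself show that a transcript was absent. The sum of 4 stromal markers, 35.9 to 128.5 CPM, came mostly from COL1A1, while DCN had 0 to 1 counts. All marker sums, here and below, were scaled by library total alone, without TMM factors. In bulk libraries, fewer expressing cells and less RNA per cell cannot be told apart. By GENCODE 29, exons of MXD1 overlap those of SNRNP27 on the same strand, and exons of MXD3 overlap those of RAB24 on the same strand and of PRELID1 on the opposite one. MYCN and MLX share exonic sequence with the opposite-strand genes MYCNOS (1 to 2 counts) and PSMC3IP (719 to 787 counts). Exons of MYCL, MAX, MXI1 and MNT also overlap those of opposite-strand genes that the count table does not hold. The strand setting of the counting is not given in the sources used here, and no such setting separates genes on the same strand. The values of all these genes are therefore uncertain.

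Levels of different genes were compared as CPM per kilobase of the longest coding transcript. MYC was the most abundant of the 10, at 48.3 ± 3.95 CPM per kilobase (SD over the 4 libraries). MLX followed at 30.5 ± 3.62, then MXD4 at 22.8 ± 3.19 and MAX at 21.4 ± 1.53, and the ranges of MXD4 and MAX overlapped. MXI1 stood at 10.3 ± 1.92 CPM per kilobase. MNT (2.93 ± 0.62) and MXD1 (2.55 ± 0.27) overlapped in range, followed by MXD3 (1.89 ± 0.29), MYCL (1.37 ± 0.13) and MYCN (0.57 ± 0.27). No other neighbours in this order overlapped. The order at the top depends on the transcript assumed. With the median length of the coding transcripts MAX led at 90.5 CPM per kilobase, ahead of MYC at 83.7 and MXI1 at 40.2, while MXD4 stayed at 22.8 and MYCN was again lowest at 0.69.

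**Figure D1:**
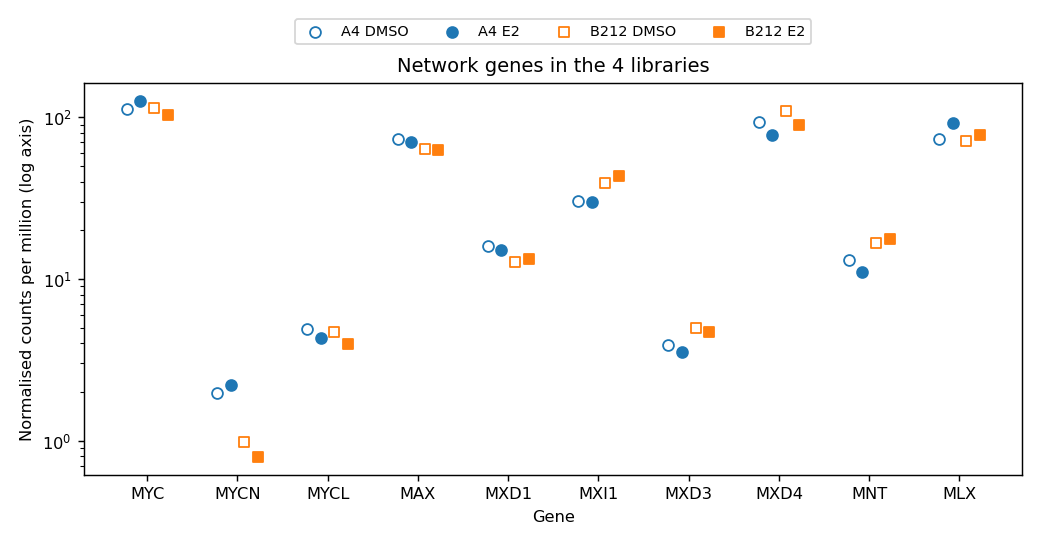
Normalised CPM (log axis) of each gene in the 4 libraries; circles are A4 and squares B212, open symbols DMSO and filled symbols E2. MYC lies between 104 and 127 CPM in all libraries, while MYCN lies at 1.97 and 2.22 CPM in A4 and at 0.98 and 0.79 CPM in B212.

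Nearly all MYC family transcripts were MYC itself. Over the 9 genes whose proteins pair with MAX (the MYC family, the MXD genes, MXI1, MNT and MGA, a large repressor that also carries a T-box), MYC took 49.5% (A4 DMSO), 54.6% (A4 E2), 46.4% (B212 DMSO) and 45.8% (B212 E2) of the summed CPM per kilobase. MYCN and MYCL together with MYC brought the family to 51.9%, 56.8%, 48.2% and 47.4% in the same order. With these lengths MXD4 took the largest share among the antagonists, with 24.0% and 19.5% of the sum in A4 and 25.8% and 23.0% in B212, DMSO first. MXI1 took 9.12% and 8.79% in A4 and 10.8% and 13.1% in B212. The order of MXD4 and MXI1 reversed with median transcript lengths, where the mean share was 20.8% for MXI1, 16.5% for MGA and 11.8% for MXD4. The ratio of antagonist (MXD1, MXI1, MXD3, MXD4 and MNT) to MYC family transcripts was 0.78 in A4 with DMSO and 0.61 with E2, and 0.92 and 0.94 in B212. Both B212 libraries thus stood above both A4 libraries, and E2 was the lower library in A4 and not in B212. With median transcript lengths the 4 ratios were 0.79, 0.65, 0.96 and 1.06, in the same order of libraries. In A4 the ratio of MLX to MAX was 1.23 under DMSO and 1.60 under E2; in B212 it was 1.36 and 1.51, higher with E2 in both. Which of the pair is more abundant depends on the length, since with median lengths MLX stood at 33.1 and MAX at 90.5 CPM per kilobase. These shares and ratios describe 4 libraries and were not tested.

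**Figure D2:**
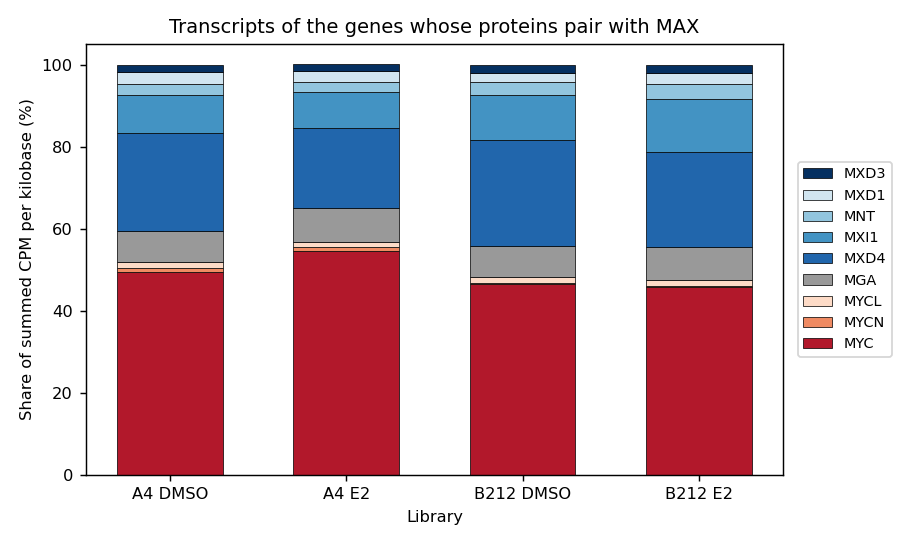
Share (%) of the summed CPM per kilobase taken by each of 9 genes whose proteins pair with MAX, 1 bar per library. Red to orange shades are the MYC family, grey is MGA and blue shades are the antagonists; MYC takes 45.8% to 54.6% and MXD4 19.5% to 25.8% of a bar.

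The first comparison asked which of these genes changed after 8 h of E2. Without a block for the clone, 0 of the 10 passed a Benjamini-Hochberg adjusted p under 0.05 in edgeR's quasi-likelihood test, and 0 had an unadjusted p under 0.05. DESeq2 and limma-voom also called 0. The background was 0% of 15599 genes called (0.962% at an unadjusted p under 0.05), and the spread within a group here includes the difference between the clones. With the tag as a block, 1 of the 10 was called, MXD4, which was lower; the background was 9.56% of genes called, 6.13% higher and 3.44% lower. The median log2 fold change of the 10 in that fit was -0.031 (0.013 with a length and GC trend removed), against -0.0081 for all genes tested. The E2 and DMSO libraries did not overlap in CPM for MXD4, MYCL and MLX, 3 of 10 genes against 25.0% of all genes. In 5 of the 10, MYC, MYCN, MXD1, MXI1 and MNT, the E2 value had opposite signs in A4 and B212, against 29.8% of all genes.

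MXD4 encodes a MAX partner that represses E-box genes and is associated with cells leaving the cycle. Its level was 93.6 CPM with DMSO and 77.6 with E2 in A4, and 109 and 89.2 CPM in B212. Both E2 libraries lay below both DMSO libraries, and the drop was of the same size in both clones (-0.27 and -0.29 as log2 fold changes). Group means were 101 ± 10.7 CPM with DMSO and 83.4 ± 8.23 CPM with E2 (SD, n = 2). With the tag as a block MXD4 fell by 0.28 ± 0.069 on the log2 scale (SE; 95% interval -0.42 to -0.14), with an edgeR adjusted p of 0.0159. As a level it fell by 17.6%. With no block the value was the same, -0.28 ± 0.14, with an adjusted p of 0.9999. The longest coding transcript of MXD4 had the highest GC content of the 10, 64.0%. When values were also corrected for a trend on length and GC, the value was -0.15 ± 0.060 and the call was lost (edgeR adjusted p = 0.182). The other 7 fits with the block kept it. Of the 17 marker genes, 4 also fell with E2 in the fit with the block: COL1A1 (-0.39, adjusted p = 0.00394), KRT18 (-0.27, 0.0230), PAX8 (-0.25, 0.0358) and VWF (-0.49, 0.0441), named after their values were seen. DCN, CD14, CD3E, PECAM1 and CDH5 fell under the filter on low counts and were not tested. Over all genes tested, 3.44% were called lower in that fit. Scaled by library total alone, without TMM factors, the summed stromal level was 128.5 (DMSO) and 90.2 CPM (E2) for A4, and 43.9 and 35.9 CPM for B212. The summed epithelial level, scaled likewise, went from 2323 to 2121 CPM and from 3022 to 2756 CPM in the same order. The part of these shifts in the E2 results was not tested.

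MYC had a mean of 113.5 ± 0.93 CPM with DMSO and of 115 ± 16.1 CPM with E2 (SD, n = 2), with opposite signs in the clones. It stood at 113 CPM with DMSO and 127 with E2 in A4, and 114 and 104 CPM in B212. The E2 libraries were thus the highest and the lowest of the 4, and the groups overlapped. On the log2 scale E2 minus DMSO was 0.16 for A4 and -0.14 for B212, and with the tag as a block it was 0.014 ± 0.076, with a 95% interval of -0.15 to 0.17 and an edgeR adjusted p of 0.931. MYCN, the family member of neural and embryonic tissue, had 144 (DMSO) and 182 (E2) counts in A4 and 84 and 58 counts in B212. Its blocked log2 fold change was -0.023 ± 0.21, and with so few counts the 95% interval ran from -0.45 to 0.41. MYCL, the member first found in lung cancer, had 4.92 and 4.30 CPM in A4 and 4.66 and 3.94 CPM in B212, lower with E2 in both. Its blocked value was -0.22 ± 0.13 (95% interval -0.49 to 0.052), which did not pass the threshold (edgeR adjusted p = 0.308).

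MAX, the obligate partner of the whole family, had 73.0 and 70.2 CPM in A4 and 63.9 and 63.0 CPM in B212, DMSO first. Its blocked log2 fold change of -0.038 ± 0.071 had a 95% interval of -0.19 to 0.11. MLX had 73.8 CPM with DMSO and 92.2 with E2 in A4, and 71.3 and 77.8 CPM in B212. Both E2 libraries lay above both DMSO libraries, and the value was larger in A4 (0.32) than in B212 (0.13), a difference that was not tested. With the tag as a block the MLX log2 fold change was 0.22 ± 0.073, short of the threshold with an edgeR adjusted p of 0.0576. Correcting for the length and GC trend gave 0.24 ± 0.061, which passed (adjusted p = 0.0494), and the other 6 alternatives with the block gave adjusted p-values of 0.0556 to 0.17.

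The other antagonists gave no call with E2. MXD1, an antagonist linked to differentiation, had 15.9 and 15.1 CPM in A4 and 12.7 and 13.3 CPM in B212. MXI1, also known as MXD2, had 30.5 and 29.9 CPM in A4 and 39.0 and 43.4 CPM in B212. MXD3 had 3.91 and 3.54 CPM in A4 and 4.94 and 4.72 CPM in B212, DMSO first throughout. The E2 and DMSO libraries of all 3 overlapped, and the clones were further apart than the treatments. MNT, the most widely expressed of the MAX-bound repressors, had 13.2 and 10.97 CPM in A4 and 16.6 and 17.8 CPM in B212, so that its E2 libraries were the lowest and the highest of the 4. The blocked log2 fold changes were -0.0099 (MXD1), 0.064 (MXI1), -0.10 (MXD3) and -0.077 (MNT), with edgeR adjusted p-values of 0.961, 0.669, 0.671 and 0.684. Their 95% intervals lay within -0.38 and 0.23.

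**Figure D3:**
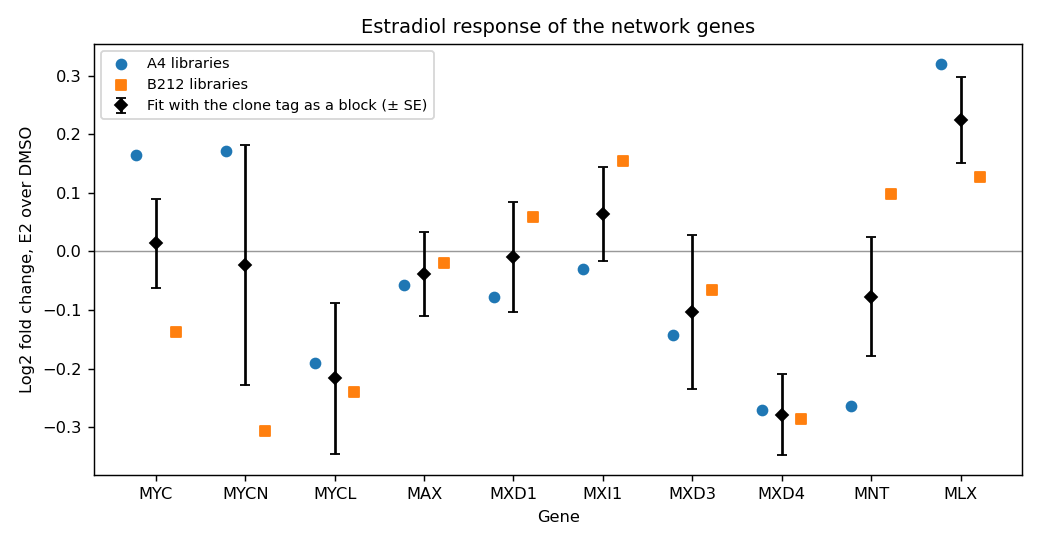
Log2 fold change of E2 over DMSO for each gene in the A4 libraries (circles), in the B212 libraries (squares) and in the fit with the clone tag as a block (diamonds, bars are SE). MXD4 lies at -0.27 and -0.29 in the 2 clones, while MYC, at 0.16 and -0.14, is 1 of 5 genes whose clones fall on opposite sides of 0.

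The clones were compared next, across both treatments. Of the 10 genes, edgeR's quasi-likelihood test called 7 at an adjusted p under 0.05, 4 higher and 3 lower in B212, against a background of 51.0% of genes called (25.2% higher and 25.8% lower). The 4 higher genes, MXI1, MXD3, MXD4 and MNT, all encode antagonists. Those lower were MYCN, MAX and the antagonist MXD1. MYC, MYCL and MLX were not called. The clones did not overlap in CPM for 6 of the 10 genes, near the 67.5% of all genes for which this held. Scaled by library total alone, the summed stromal markers were also lower in B212 (35.9 to 43.9 CPM) than in A4 (90.2 to 128.5 CPM). The epithelial sum, scaled likewise, was higher (2756 to 3022 against 2121 to 2323 CPM). The part of these markers in the differences of the network genes was not tested.

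MYCN had the largest difference, with 2.09 ± 0.18 CPM in A4 and 0.89 ± 0.14 CPM in B212 (SD, n = 2). All its B212 counts were below its A4 counts. The log2 fold change was -1.23 ± 0.21 (SE), 2.35-fold lower in B212, with an edgeR adjusted p of 5.43e-05. Between the DMSO libraries it was -0.98, and between the E2 libraries -1.46. MNT was higher in B212, at 17.2 ± 0.83 CPM against 12.1 ± 1.56 CPM, a log2 fold change of 0.51 ± 0.10 (edgeR adjusted p = 2.87e-04). The MNT value was 0.33 between the DMSO libraries and 0.69 between the E2 libraries. Omitting single libraries gave the same 0.33 to 0.69, because only 1 treatment then holds both clones, and so adds no separate check. MXI1 was also higher, at 41.2 ± 3.13 CPM against 30.2 ± 0.43 CPM, by 0.45 ± 0.081 (adjusted p = 1.12e-04). For both genes every B212 library lay above every A4 library. MYCN, MXI1 and MNT were called in all 9 fits of this comparison.

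The remaining calls were smaller and depended on the fit. MXD3 was higher in B212 by 0.38 ± 0.13 on the log2 scale, at 4.83 ± 0.16 CPM against 3.72 ± 0.26 CPM (edgeR adjusted p = 0.0210). MXD4 was higher by 0.21 ± 0.069 (adjusted p = 0.0159), although the libraries of the clones overlapped: B212 with E2 had 89.2 CPM and A4 with DMSO 93.6 CPM. Both lost the call with DESeq2 (adjusted p = 0.185 and 0.0802) and with no treatment term. MXD1 was lower in B212, with a log2 fold change of -0.26 ± 0.094 (adjusted p = 0.0283), and MAX was lower with -0.17 ± 0.071 (adjusted p = 0.0486). These lost the call with DESeq2, with no treatment term and with library sizes alone as the scaling, where MAX was at -0.11 and MXD1 at -0.19. MYC differed by -0.13 ± 0.076, with a 95% interval of -0.29 to 0.025, and by 0.017 between the DMSO libraries against -0.29 between the E2 libraries. MYCL differed by -0.10 ± 0.13 and MLX by -0.15 ± 0.073.

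**Figure D4:**
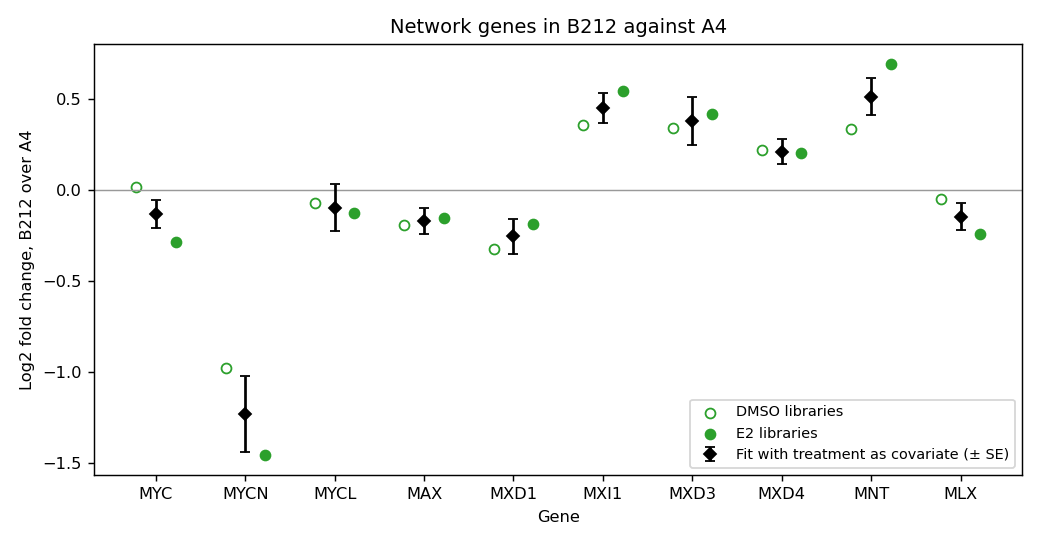
Log2 fold change of B212 over A4 for each gene between the DMSO libraries (open circles), between the E2 libraries (filled circles) and in the fit with treatment as covariate (diamonds, bars are SE). MYCN lies at -1.23, while MXI1, MXD3, MXD4 and MNT lie above 0 under both treatments.

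Lists of partners, cofactors and targets were then set beside the network, with the tag as a block for E2. Of the other dimerisation partners, MLXIPL rose with E2, from 5.63 to 6.27 CPM in A4 and from 15.2 to 23.3 CPM in B212 (log2 fold change 0.42 ± 0.11, edgeR adjusted p = 0.0238). DESeq2 size factors ended that call (adjusted p = 0.0641), and DESeq2 itself gave MLXIPL no adjusted p. MGA and MLXIP were not called with E2. All counts for E2 are to be read against the 9.56% of all genes called with the block. Of 8 corepressor subunits and 12 genes of MYC protein turnover, 0 were called. Of 14 coactivators (14.3% called), ACTL6A rose (0.22 ± 0.070, adjusted p = 0.0474) and HCFC1 fell (-0.25 ± 0.075, adjusted p = 0.0434). Neither kept the call with DESeq2 size factors, DESeq2, limma-voom or the trend removed, where ACTL6A was at 0.075 and HCFC1 at -0.058. ACTL6A also lost it with library sizes alone (adjusted p = 0.0627) and with no filter (0.0553). With no block 0 genes of any list were called, and 0 had an unadjusted p under 0.05.

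The share of target genes called with E2 was near that of all genes. Among 29 tested MYC-induced targets, 2 rose, 1 fell and 26 did not pass (10.3% called, against 9.56% of all genes), with a median log2 fold change of 0.040 against -0.0081 for all genes. NME1, a nucleoside diphosphate kinase, rose from 136 to 196 CPM in A4 and from 88.3 to 104.5 CPM in B212 (0.39 ± 0.076, adjusted p = 0.00458). HSPE1, the mitochondrial chaperonin cofactor, rose by 0.32 ± 0.071 (adjusted p = 0.00900), a value of 0.16 that was not called (adjusted p = 0.111) with the trend removed. SHMT1, the cytosolic serine hydroxymethyltransferase, fell by 0.27 ± 0.073 (adjusted p = 0.0251) and was not called by DESeq2 (adjusted p = 0.0621). Of 7 genes known to be repressed by MYC, THBS1 alone passed (14.3%). This gene for thrombospondin-1 rose from 1243 to 1592 CPM in A4 and from 378 to 692 CPM in B212 (0.61 ± 0.094, adjusted p = 9.12e-04). Of 3 tested targets of the Mondo factors, TXNIP, ARRDC4 and HK2, 0 were called.

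Between the clones the MYC-induced targets were mostly lower in B212. The list was chosen with earlier results of these data known, and the shares over all genes were not matched for expression level. Of 29 tested, 24 were called lower, 2 higher and 3 (NPM1, SHMT1 and PTMA) were not called; over all genes the shares were 25.8% lower and 25.2% higher. Their median log2 fold change was -0.41, against 0.0042 for all genes, and from -0.44 to -0.34 under the other scalings and with the trend removed. SRM, the spermidine synthase gene, had 128 and 126 CPM in A4 and 47.9 and 47.6 CPM in B212 (-1.41 ± 0.071, edgeR adjusted p = 1.55e-12). NOP16, a nucleolar protein gene, had 66.7 and 75.4 CPM against 33.1 and 35.3 CPM (-1.05 ± 0.076). CCND2, a G1 cyclin, went the other way, with 35.6 and 33.4 CPM in A4 and 68.4 and 76.6 CPM in B212 (1.07 ± 0.080), as did IMPDH2 (0.38 ± 0.071), an enzyme of guanine nucleotide synthesis.

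Of the other lists, 50% of the coactivators, 50% of the turnover genes and 37.5% of the corepressor subunits were called between the clones. These shares were near or below the 51.0% of all genes. Above it were the 3 other dimerisation partners (66.7%), the 7 MYC-repressed targets (71.4%) and the 3 tested Mondo targets (100%), all short lists. MLXIPL was higher in B212 by 1.67 ± 0.11 on the log2 scale (edgeR adjusted p = 2.07e-10) and MLXIP was lower, with a value of -0.42 ± 0.074. The 3 Mondo targets were each lower in B212, with log2 fold changes of -0.56 ± 0.087 (TXNIP), -0.55 (ARRDC4) and -0.57 ± 0.073 (HK2). Of 14 coactivators 7 were lower and 0 higher, led by RUVBL2 (-0.44 ± 0.071) and KAT2A (-0.43 ± 0.075), a helicase and a histone acetyltransferase of MYC-bound complexes. Of 8 corepressor subunits, SAP30 (-0.35), HDAC2 (-0.23) and SIN3B (-0.21) were lower and 0 higher. With library sizes alone as the scaling, 1 was lower and 1 higher, and HDAC2 was not called (adjusted p = 0.062), nor was it without a treatment term (0.109). Of 12 turnover genes 5 were lower, among them the mitotic kinases PLK1 (-0.71 ± 0.069) and AURKA (-0.44 ± 0.070), and USP37, a deubiquitinase, was higher (0.38 ± 0.070). Of 7 MYC-repressed targets, 3 were higher and 2 lower. The cell cycle inhibitor CDKN1A had 20.4 and 20.6 CPM in A4 and 41.6 and 43.2 CPM in B212 (1.05 ± 0.081), NDRG1 was higher by 0.86 ± 0.15 and CDKN1B by 0.26. THBS1 was lower, with a value of -1.46 ± 0.095, and so was CDKN2B (-0.32 ± 0.10), whose call was lost with library sizes alone (adjusted p = 0.0527), DESeq2 (0.0911) and no treatment term (0.118).

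**Figure D5:**
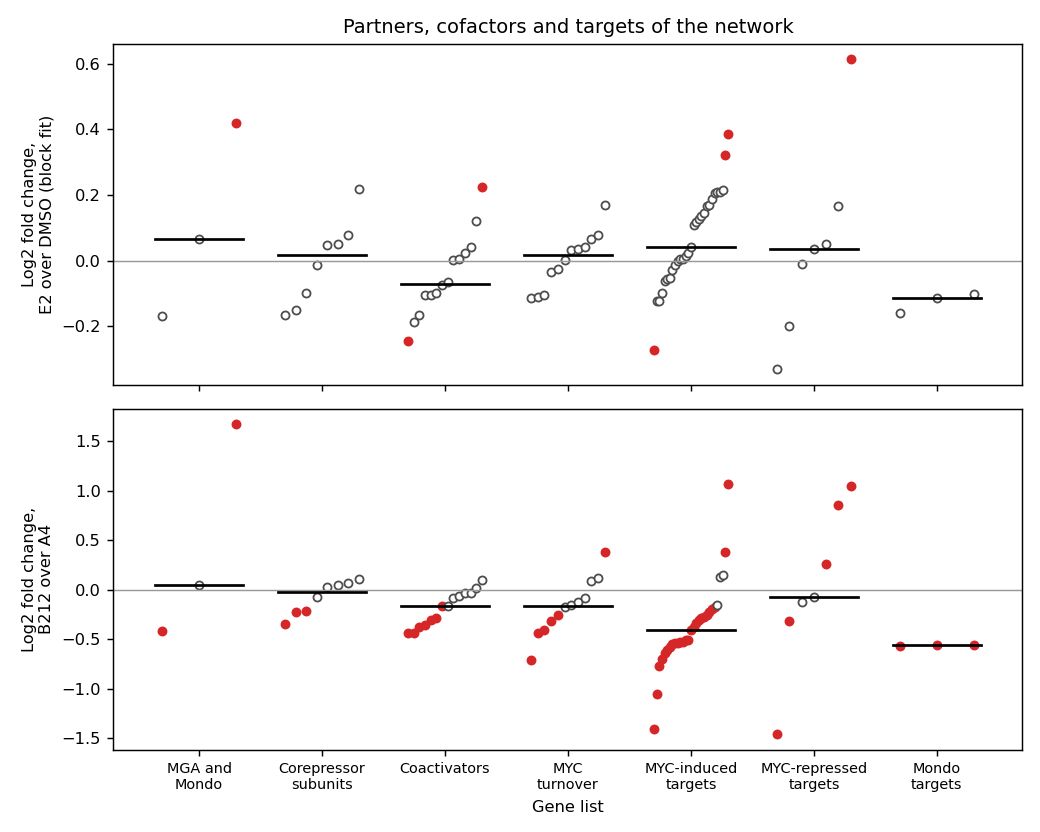
Log2 fold changes of the tested genes of each list for E2 over DMSO (top, tag as a block) and for B212 over A4 (bottom); filled points passed an adjusted p under 0.05 and lines are medians. The MYC-induced targets have a median of 0.040 in the upper panel and of -0.41 in the lower.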

How the data were processed

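RNA was measured in 4 libraries, made per the labels' protocols with a stranded poly(A) kit from 500 ng of RNA each. The authors deposited raw counts of reads for each gene symbol. The submitters' processing notes name HISAT2, SAMtools, featureCounts, DESeq2 and hg19; versions, annotation and strand setting are not given in the sources used here. The table holds 4 further columns that match no sample here, and these were not used.

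From these counts, genes were kept by filterByExpr (minimum count 10), which left 15599, and TMM factors scaled the libraries. E2 was compared with DMSO by the quasi-likelihood test of edgeR 4.0.16 with no block, and the clones with treatment as covariate. P-values were adjusted over all genes tested by Benjamini-Hochberg, with a threshold of 0.05. Standard errors are the fold change over the root of F, and log2 CPM used a prior count of 2. The labels give both treatments for each clone, and same-tag libraries deviated together from their group means (Pearson r = 0.871 across genes; with 2 groups of 2 this is 1 independent value), so values from a fit that blocks on the tag are printed beside the planned ones. No libraries agreed within sampling noise (chi-square over its degrees of freedom, 27.1 to 218).

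Alternatives used DESeq2 1.42.0, limma 3.58.1 (voom), other scalings and filters, omitted libraries, and removal of a smooth length and GC trend (mgcv 1.9.3). Lengths came from GENCODE 29. Scripts were tested on simulated data. R 4.3.3, Python 3.11.15 and matplotlib 3.10.9 were used. The 10 genes and the lists were chosen with earlier results of these data known. All 10 are named throughout; from each list, up to 3 called genes per direction by smallest p for E2 with the block, and up to 2 for the clones. MGA, ARRDC4, SIN3B, CDKN1B, NPM1 and PTMA were named after their values were seen. PKLR and THRSP fell under the filter, as did EIF4A1, listed at 0; KIAA1524 and PHB stand in the table for CIP2A and PHB1. The value of 1 list gene is not reported here.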

Additional observations from a re-analysis of the deposited data

Results flagged for a closer look

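Of the 10 network genes, 5 had E2 values of opposite sign in the clones, against 29.8% of all genes. None of these differences was tested, since each clone had 1 library per treatment; the 95% intervals given cover counting error only.

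MYC stood at 0.16 on the log2 scale for A4 and at -0.14 for B212, so B212 minus A4 was -0.30, with a counting interval of -0.36 to -0.24. MNT had -0.26 and 0.098, a difference of 0.36 (0.19 to 0.53). MXI1 had -0.029 and 0.15, a difference of 0.18 (0.075 to 0.29). The counting intervals of these 3 genes did not include 0, which is not a test, as they leave out the spread between replicate libraries. MYCN had 0.17 and -0.31, a difference of -0.48 (-1.06 to 0.099), and MXD1 had -0.077 and 0.059, a difference of 0.14 (-0.033 to 0.31), both including 0.

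The medians of 3 lists also had opposite signs. For MGA, MLXIP and MLXIPL the A4 median was 0.15 and the B212 median -0.023, which differ by -0.18. The corepressor subunits had 3.22e-04 and -0.0070, a difference of -0.0073, and the MYC turnover genes had 0.031 and -0.0040, a difference of -0.035.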

How the results depend on the processing

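With no block, 0 of the 10 genes were called for E2 under both other scalings, both other filters, DESeq2, limma-voom and each omitted library, where the lone library of an arm is assumed to vary like the other group. The tag as a replicate block gave 1 gene under each of its 8 fits and 0 at an adjusted p under 0.01. This gene was MXD4 in 7 fits and MLX with the length and GC trend removed. DESeq2 with the block gave MYCN, MYCL, MXD1, MXD3 and MNT no adjusted p, so these could not be called there. Over all genes the block gave 562 to 1770 calls at the 0.05 threshold.

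Values near 0 changed sign. With library sizes only, MYC was -0.0033 and MYCN -0.0018; with limma-voom, MYCN was -0.030 and MXD1 8.78e-04. With the replicate block MYCN was -0.023 (also at the stricter threshold), -0.030 with DESeq2 size factors, -0.050 with library sizes only, -0.062 with DESeq2, -0.029 with at least 10 counts in every library and -0.019 with no filter. MYC was -0.0062 with the block and library sizes only. With the block and the trend removed, MAX was 7.04e-04, MXD1 0.0013 and MNT 0.075. The cause was not tested.

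Omitting libraries in turn gave log2 fold changes for E2 of -0.13 to 0.16 (MYC), -0.90 to 0.62 (MYCN), -0.15 to 0.064 (MAX), -0.18 to 0.16 (MXD1), -0.22 to 0.32 (MXI1), -0.32 to 0.091 (MXD3) and -0.44 to 0.25 (MNT). MXD4 (-0.38 to -0.18), MYCL (-0.28 to -0.15) and MLX (0.10 to 0.35) kept their sign. MLXIPL ranged from -0.73 to 1.38, NME1 from -0.11 to 0.81, HSPE1 from -0.018 to 0.62 and THBS1 from -0.23 to 1.60. These fits unbalance the clones.

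Between the clones, the 7 calls became 3 with DESeq2, 3 with no treatment term and 1 when a log2 difference of 1 or more was also required; the other alternatives gave 5 to 7. Without 1 library there is no residual spread and so no call. The value is then the clone difference within the 1 treatment that keeps both clones, and for MYC it ranged from -0.29 to 0.016. The 24 MYC-induced targets called lower, a count followed after seeing the data, became 2 under that requirement and 17 to 25 otherwise. The median transcript length moved the level of 6 genes by more than the spread between libraries. MYCN, at 58 to 182 counts, was limited most by depth.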
